A study of Homo sapiens with 6 samples.

Results

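The 10 genes described here are ADD2, which encodes beta-adducin, and 9 genes of the contractile actin apparatus, namely TAGLN, TAGLN2, CNN1, CNN3, TPM1, TPM2, CALD1, ACTA2 and MYL9. They are 10 of the 19775 genes with a probe set of their own on the array, and are read by 40 of its 54613 probe sets that are not Affymetrix controls. The genes were selected with the differences between PC9/gef and PC9 on these same arrays already known, so their values below are a description and carry no test. PC9/gef is a gefitinib-resistant lung adenocarcinoma line selected from PC9 by continuous exposure to rising concentrations of gefitinib, which blocks the kinase of EGFR. PC9 is the gefitinib-sensitive parental line. Both were grown in the same serum-containing medium, and whether PC9/gef was kept in drug when RNA was taken is not given in the sources used here. There were 3 PC9/gef and 3 PC9 samples with 1 array each, which the labels call biological replicates. PC9/gef is a single selected line, so p-values measure only the spread between these samples.

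Actin filaments in non-muscle cells are bundled and tensioned by a set of proteins of kinds also found in smooth muscle. Tropomyosins run along the filament, caldesmon, calponins and transgelins bind beside them, and myosin with its light chains pulls on it. Adducin works elsewhere, at the inner face of the plasma membrane, where it caps the fast-growing end of short filaments and links them to spectrin. Many of the smooth muscle genes are known targets of the serum response factor SRF and its cofactors, which read the state of the actin pool.

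ADD2 had the largest rise of the 10 genes and TAGLN the largest fall. Among all 19775 genes ADD2 ranked 8th by rise, whereas TAGLN ranked 116th and TPM2 452nd by fall. These ranks rest on the brightest probe set of each gene, which for all of them carries a suffix for probe sets shared between transcripts. Without such probe sets the ADD2 difference was 1.17 and that of TAGLN, read near background, -0.0109. TPM1 and CALD1 were modestly higher in PC9/gef, ranking 1814th and 1660th by rise. TAGLN2 and CNN3 were bright in both lines with small differences of either sign, ACTA2 lay just above the background level in both lines, and CNN1 and MYL9 lay below it. A probe set was taken to be at background where its mean was at or below 2.65 on the log2 scale, a level that 95 percent of 135 probe sets for olfactory receptors did not exceed in their means.

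**Figure D1:**
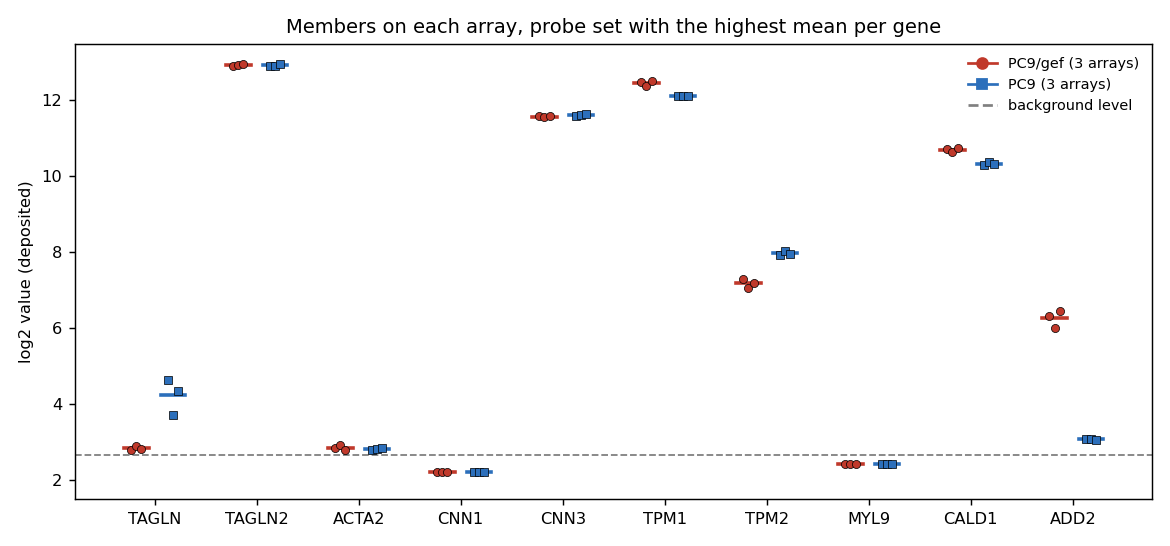
Deposited log2 value (vertical axis) of the 10 genes on each PC9/gef array (circles, left of each pair) and PC9 array (squares), with the mean of the 3 arrays as a bar and the background level as a dashed line. ADD2 averaged 6.26 in PC9/gef and 3.07 in PC9, TAGLN 2.83 in PC9/gef and 4.23 in PC9, and CNN1 and MYL9 lie below the line in both.

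Upstream sequences from the RefSeq table of the GRCh38.p14 assembly are shown for ADD2, the gene with the largest rise, and for TPM1 and TPM2, the tropomyosins that differed in opposite directions. Each is 300 bases around an annotated transcript start, on the strand of the gene, in lower case, with matches to GGGCGG (an Sp1-type box, either strand) and to CAGGTG (an E-box bound by Snail-type repressors, either strand) in capitals. The ADD2 gene lies at chr2:70656784-70768200 and has 2 annotated starts on the minus strand, with windows chr2:70768151-70768450 and chr2:70767666-70767965. The TPM1 window is chr15:63048239-63048538 on the plus strand. It lies inside the gene, which begins at chr15:63042747, so it belongs to an internal start. The TPM2 window, of its first listed start, is chr9:35690007-35690306 on the minus strand, at the 5' end of the gene.
ADD2 start 1: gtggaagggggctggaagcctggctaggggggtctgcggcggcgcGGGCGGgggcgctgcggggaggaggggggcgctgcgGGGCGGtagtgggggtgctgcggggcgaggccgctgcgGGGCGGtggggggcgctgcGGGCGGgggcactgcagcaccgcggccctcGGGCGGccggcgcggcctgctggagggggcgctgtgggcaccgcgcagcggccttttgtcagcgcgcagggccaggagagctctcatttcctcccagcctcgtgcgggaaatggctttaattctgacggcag
ADD2 start 2: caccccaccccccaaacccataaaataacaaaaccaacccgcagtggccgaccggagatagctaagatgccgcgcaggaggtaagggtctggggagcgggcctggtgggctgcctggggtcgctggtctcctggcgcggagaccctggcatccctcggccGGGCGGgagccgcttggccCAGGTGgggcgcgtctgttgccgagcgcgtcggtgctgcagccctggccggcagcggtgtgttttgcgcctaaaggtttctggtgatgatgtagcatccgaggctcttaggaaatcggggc
TPM1: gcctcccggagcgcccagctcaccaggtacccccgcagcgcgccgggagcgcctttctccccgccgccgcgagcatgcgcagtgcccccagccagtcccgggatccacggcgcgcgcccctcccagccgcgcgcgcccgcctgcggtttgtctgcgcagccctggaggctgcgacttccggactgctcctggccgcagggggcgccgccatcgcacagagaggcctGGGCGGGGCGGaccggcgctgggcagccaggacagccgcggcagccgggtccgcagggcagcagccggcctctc
TPM2 start 1: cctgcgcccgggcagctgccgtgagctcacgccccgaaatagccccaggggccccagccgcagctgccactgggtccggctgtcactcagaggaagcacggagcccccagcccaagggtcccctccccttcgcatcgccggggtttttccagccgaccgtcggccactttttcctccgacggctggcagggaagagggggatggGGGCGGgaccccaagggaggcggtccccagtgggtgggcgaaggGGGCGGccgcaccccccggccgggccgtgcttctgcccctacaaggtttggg

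The first ADD2 window held 5 GGGCGG boxes and 34 CpG dinucleotides and was 76.7% G and C. The second held 1 GGGCGG box, 1 CAGGTG and 24 CpG at 65.7%. TPM1, which was higher in PC9/gef, and TPM2, which was lower, each carried 2 GGGCGG boxes, overlapping in TPM1, with 39 CpG at 78.3% and 24 CpG at 72.3%. The median over all promoter entries was 58.7% G and C. Across the 17 entries of the 8 genes that have one, 11 held GGGCGG, 2 held CAGGTG, 3 held the AP-1 letters TGANTCA, 4 held the TEAD-type letters CATTCC, 1 held TATAAA and 0 held a strict CArG box, the consensus of the element that SRF binds. No mismatch was allowed, so boxes that depart from the consensus were not counted. TAGLN and MYL9 have no entry. The 0 therefore does not show that these genes lack SRF sites. In all 35116 entries these letters, on either strand, occurred in 45.0%, 20.6%, 7.71%, 14.0% and 11.5%, and the strict CArG box in 1.29%. A match here is a run of letters and not a measured binding site.

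ADD2 was read by 6 probe sets. On the brightest, 205268_s_at, the PC9/gef arrays held 6.32, 6.01 and 6.44 and the PC9 arrays 3.08, 3.09 and 3.06. The means were 6.26 ± 0.22 in PC9/gef and 3.07 ± 0.014 in PC9 (SD, n = 3 each), a log2 difference of 3.18 with a standard error of 0.12, or 9.09-fold higher. The lowest PC9/gef array thus stood far above the highest PC9 array, while PC9 itself was only slightly above background. Probe set 213484_at read 3.71, 3.77 and 4.53 in PC9/gef and 2.89, 2.89 and 2.71 in PC9, a difference of 1.17 (standard error 0.26), or 2.26-fold. PC9/gef array 3 was well above arrays 1 and 2, and the lines did not overlap. Probe set 230988_at read 3.25, 3.09 and 2.53 in PC9/gef and 2.41, 2.43 and 2.41 in PC9. There PC9 was at background, as was PC9/gef array 3, and against the background level PC9/gef was at least 1.24-fold higher. The remaining 3 probe sets, 206807_s_at, 237336_at and 239530_at, were at background in both lines. Leaving out 1 array at a time kept the difference of the brightest ADD2 probe set between 3.09 and 3.31.

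**Figure D2:**
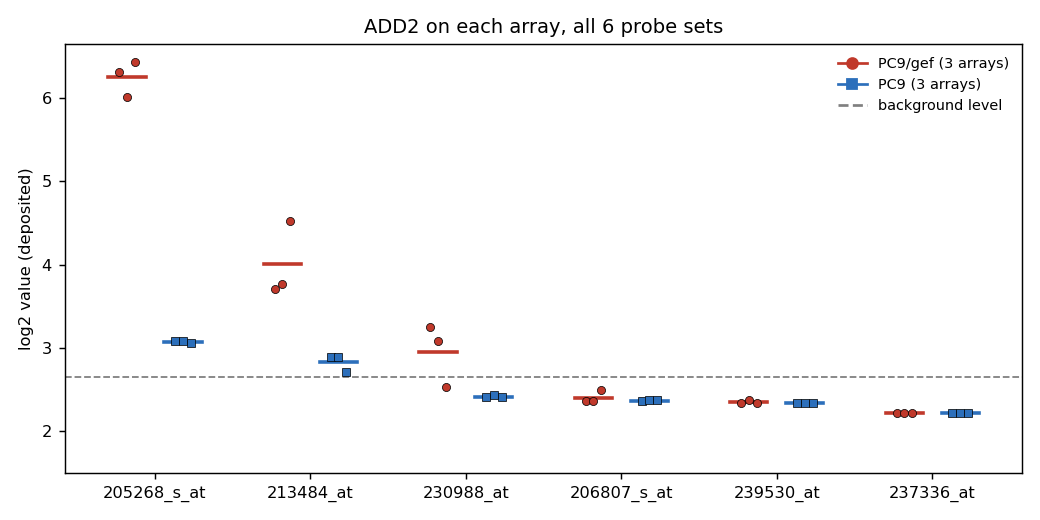
Deposited log2 value (vertical axis) of all 6 ADD2 probe sets on each PC9/gef array (circles, left of each pair) and PC9 array (squares), with means as bars and the background level as a dashed line. The difference is 3.18 on 205268_s_at, 1.17 on 213484_at and 0.55 on 230988_at, and the other 3 probe sets lie below the line.

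TAGLN (chr11:117199294-117207465) encodes transgelin, also called SM22-alpha, an actin cross-linking protein that is an early marker of smooth muscle. Its brightest probe set, 205547_s_at, read 2.80, 2.88 and 2.82 in PC9/gef and 4.63, 3.71 and 4.34 in PC9. The means were 2.83 ± 0.042 in PC9/gef and 4.23 ± 0.47 in PC9 (SD, n = 3 each), so PC9/gef fell by 1.39 on the log2 scale (standard error 0.26), or 2.63-fold. All 3 PC9/gef arrays lay close to background and the PC9 arrays were spread above it, from 3.71 to 4.63. Without 1 array at a time the difference ran from -1.65 to -1.19. The other TAGLN probe sets carried almost no signal, with means of 2.64 in PC9/gef and 2.65 in PC9 on 226523_at and 2.17 in PC9/gef and 2.32 in PC9 on 1555724_s_at.

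TAGLN2 (chr1:159918111-159925507), the transgelin found in most non-muscle cells, differed little between the lines. Its brightest probe set, 200916_at, averaged 12.93 in PC9/gef and 12.92 in PC9, and the arrays of the lines overlapped. The second, 210978_s_at, read 11.19, 11.23 and 11.17 in PC9/gef and 11.43, 11.38 and 11.37 in PC9, a difference of -0.20. The 2 probe sets of TAGLN2 therefore gave different answers.

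The calponins are regulatory proteins related to transgelin. CNN3 (chr1:94896957-94927110), the acidic calponin of non-muscle cells, averaged 11.56 in PC9/gef and 11.61 in PC9 on its brightest probe set, 201445_at, with overlapping arrays. On 228297_at it read 10.07, 10.01 and 10.01 in PC9/gef and 9.84, 9.83 and 9.83 in PC9, a difference of 0.20. CNN1 (chr19:11538851-11550323), the smooth muscle calponin, was at 2.21 in both lines, below the background level.

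TPM2 was lower and TPM1 higher in PC9/gef. TPM2 (chr9:35681993-35690056), which encodes beta-tropomyosin, read 7.30, 7.06 and 7.19 in PC9/gef and 7.92, 8.03 and 7.95 in PC9 on 204083_s_at. The means were 7.18 ± 0.12 in PC9/gef and 7.97 ± 0.054 in PC9 (SD, n = 3 each), a difference of -0.79 (standard error 0.072), or 1.72-fold lower. The arrays did not overlap, and the difference stayed between -0.844 and -0.724 when single arrays were left out. This probe set carries a suffix for probe sets shared between transcripts. The TPM2 difference was -0.207 with the mean over all its probe sets and -0.0317 without such suffixes, where it is read from a probe set near background. The TPM2 probe sets 212654_at, at 2.85 in PC9/gef and 2.89 in PC9, and 229911_at, at 2.65 in PC9/gef and 2.66 in PC9, barely exceeded background.

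TPM1 (chr15:63042747-63071915), which encodes alpha-tropomyosin, read 12.48, 12.38 and 12.51 in PC9/gef and 12.11, 12.12 and 12.10 in PC9 on 210986_s_at. That is a difference of 0.35 (standard error 0.038), or 1.27-fold higher. Probe set 206116_s_at read 10.81, 10.84 and 10.75 in PC9/gef and 10.62, 10.52 and 10.55 in PC9, and 210987_x_at read 10.90, 10.93 and 10.88 in PC9/gef and 10.67, 10.71 and 10.63 in PC9. Each differed by 0.24, so all 3 TPM1 probe sets above background were higher in PC9/gef without overlap. All 3 carry the suffixes that Affymetrix gives to probe sets shared between transcripts or prone to cross-hybridization. Without such probe sets TPM1 was read from a background-level probe set with a difference of -0.0353.

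CALD1 (chr7:134711499-134970729) encodes caldesmon, which binds actin, tropomyosin and myosin. Its brightest probe set, 212077_at, read 10.71, 10.64 and 10.73 in PC9/gef and 10.28, 10.38 and 10.31 in PC9. The difference was 0.37 (standard error 0.037), or 1.30-fold higher, and 0.351 to 0.401 without single arrays. Of its 11 probe sets 5 were above background, and 4 of those were higher in PC9/gef. Probe set 201615_x_at averaged 5.84 in PC9/gef and 5.62 in PC9, 201616_s_at 6.79 in PC9/gef and 6.55 in PC9, and 201617_x_at 6.39 in PC9/gef and 6.18 in PC9, with overlapping arrays on 201616_s_at. The exception, 214880_x_at, averaged 3.81 in PC9/gef and 3.97 in PC9 with overlapping arrays.

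ACTA2 (chr10:88935074-88991337), the smooth muscle alpha-actin, read 2.83, 2.92 and 2.79 in PC9/gef and 2.80, 2.82 and 2.85 in PC9 on 200974_at, and its other probe sets were at background. MYL9 (chr20:36541519-36551447), a regulatory light chain of smooth muscle and non-muscle myosin, averaged 2.41 in PC9/gef and 2.42 in PC9 on its brighter probe set. These 2 genes and CNN1, known markers of contractile smooth muscle, thus gave little or no signal in either line. Differences between the lines could not be read for them at this signal.

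**Figure D3:**
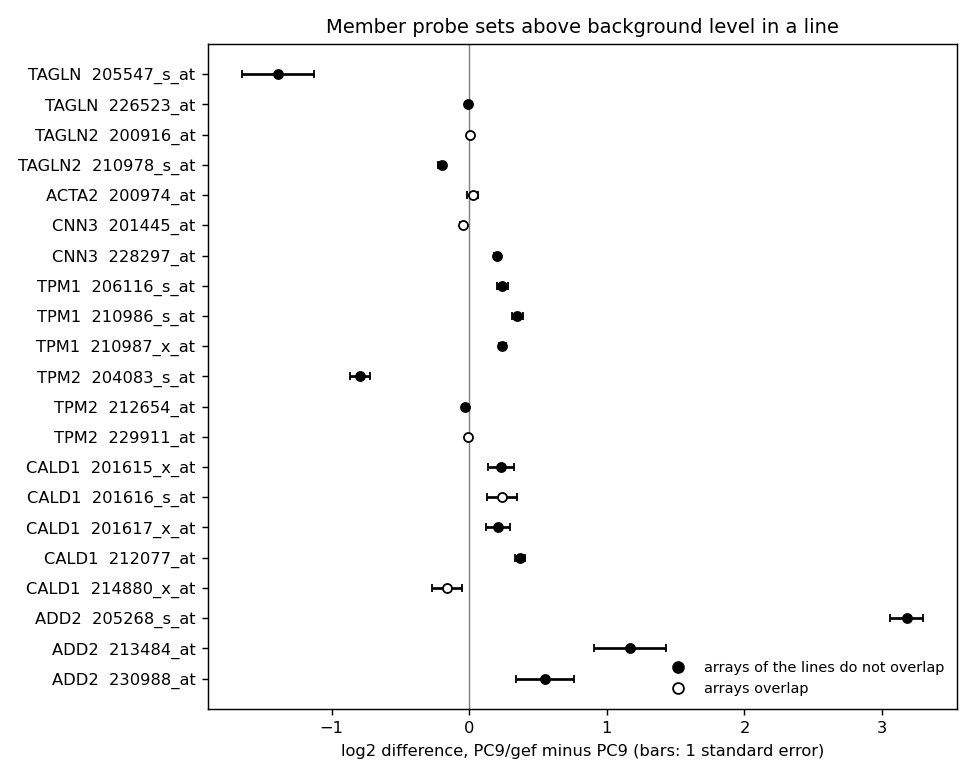
Log2 difference, PC9/gef minus PC9 (horizontal axis, bars 1 standard error), of the 21 probe sets of the 10 genes above background in a line, filled where the arrays of the lines do not overlap. ADD2 reaches 3.18, TAGLN -1.39 and TPM2 -0.79, and the probe sets of the other 5 genes shown lie within 0.4 of 0.

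Of the 40 probe sets 21 were above background in at least 1 line, 13 of them higher and 8 lower in PC9/gef, with a median difference of 0.20. The arrays of the lines did not overlap for 15 of the 21, as for 60.3% of all 25348 probe sets above background. In limma 9 of the 21 passed an adjusted p of 0.05, 6 higher and 3 lower, as did 32.9% of all such probe sets. Since the genes were chosen on this contrast, nothing is read from these counts. The 19 probe sets at background in both lines differed by at most 0.15, and of all 29265 such probe sets 2.47% passed. Taking 1 probe set per gene, the median difference of the 10 genes was 0.0041, and ADD2 and TAGLN exceeded 2-fold, as did 4.77% of the 11955 genes above background.

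**Figure D4:**
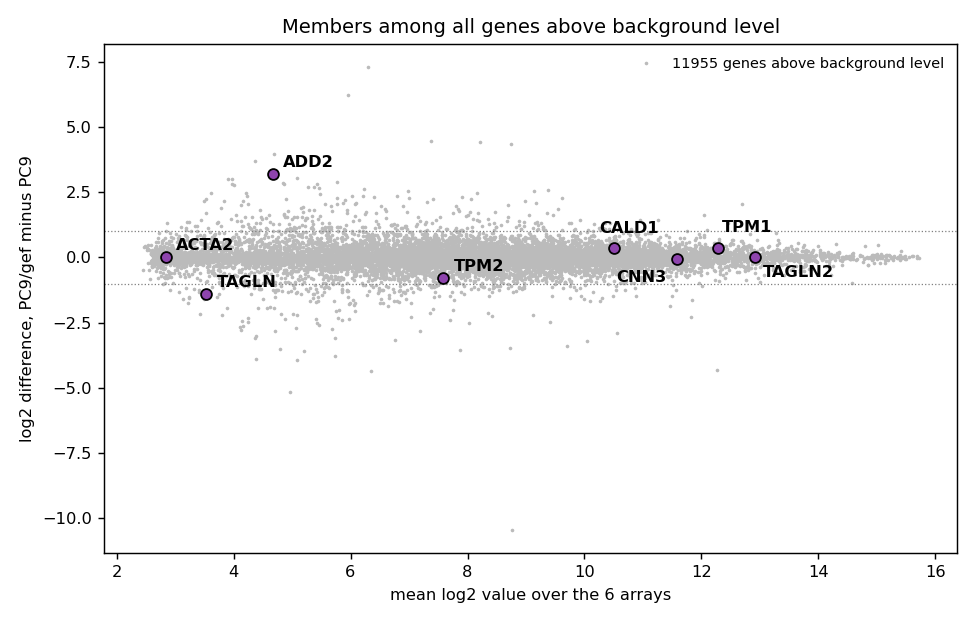
Log2 difference, PC9/gef minus PC9 (vertical axis), against the mean log2 value over the 6 arrays (horizontal axis) for 11955 genes above background (grey), with 8 of the 10 genes labelled and dotted lines at 2-fold. ADD2 (3.18) and TAGLN (-1.39) lie outside the dotted lines and the other 6 inside.

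Genes with a profile close to that of ADD2 and TAGLN over the 6 arrays were found by the root mean square distance between log2 values centred on each gene's mean. The closest to ADD2 was PLAAT1, a phospholipid-metabolizing enzyme, at a distance of 0.16. It read 5.78, 5.08 and 5.61 in PC9/gef and 2.41, 2.41 and 2.60 in PC9. SPARC, a matricellular glycoprotein, followed at 0.20 with means of 7.22 in PC9/gef and 4.32 in PC9. HLA-DQB1, an HLA class II chain, and DOCK10 were both at 0.22. The closest to TAGLN were CACNA2D1, a calcium channel subunit, and BATF, an AP-1 family transcription factor, both at 0.19, then LYPD6B and GUCY1A1, a subunit of soluble guanylate cyclase, both at 0.20. CACNA2D1 averaged 5.25 in PC9/gef and 6.45 in PC9, and GUCY1A1 2.95 in PC9/gef and 4.47 in PC9. These genes were picked for likeness in this contrast, so their differences are a description.

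Other genes of the same machinery were counted from lists, on 1 probe set per gene above background, with the limma test adjusted over all 19775 genes. Over all 11955 genes above background 23.2% were higher and 21.8% lower in PC9/gef at an adjusted p of 0.05, with a median difference of -0.0098. The lists too were chosen with earlier results of these data known. Their counts and shares below are therefore a description, and nothing is read from their distance to the shares over all genes. Cell number and RNA per cell cannot be told apart in bulk RNA.

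The family relatives of the 10 genes did not share a direction. Of 13 above background 4 were higher (30.8%) and 4 lower (30.8%), with a median of -0.0037. MYL5, a myosin light chain, read 6.65, 6.71 and 6.64 in PC9/gef and 7.40, 7.24 and 7.28 in PC9, and fell by 0.64 (adjusted p = 0.0015). CNN2, a calponin of non-muscle cells, averaged 6.50 ± 0.20 in PC9/gef and 7.06 ± 0.074 in PC9 (SD, n = 3 each), and fell by 0.56 in limma (adjusted p = 0.03). TPM4, a short tropomyosin of non-muscle cells, fell by 0.26 (adjusted p = 0.013), and its 3 probe sets above background differed by -0.29 to -0.19. ADD3, which encodes gamma-adducin, averaged 11.60 in PC9/gef and 11.41 in PC9, and rose by 0.19 (adjusted p = 0.011). The 4 ADD3 probe sets above background differed by 0.037 to 0.19, and only 1 of them passed over all probe sets. ADD1, alpha-adducin, differed by 0.10 and did not pass (adjusted p = 0.12). The widely expressed adducins were thus bright in both lines, and their differences were far smaller than that of ADD2. ACTB, beta-actin, averaged 15.09 in PC9/gef and 15.19 in PC9 (adjusted p = 0.018), and the 9 probe sets of ACTB and ACTG1 differed by -0.094 to -0.018. ACTC1, the cardiac alpha-actin, read 6.42, 7.03 and 6.79 in PC9/gef and 6.03, 5.92 and 6.18 in PC9, a difference of 0.71 that did not pass (adjusted p = 0.052).

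Several of these calls depended on single arrays. CNN2 lost its call without PC9/gef replicate 1 (adjusted p = 0.1), PC9/gef replicate 3 (0.075) or PC9 replicate 1 (0.084), 2 (0.093) or 3 (0.1). TPM4 lost it without PC9/gef replicate 1 (0.055), PC9 replicate 2 (0.057) or PC9 replicate 3 (0.052), and ACTB without PC9/gef replicate 1 (0.071), 2 (0.05) or 3 (0.062). ACTC1 passed without PC9/gef replicate 1 (0.023). The count of relatives higher was 2 without PC9/gef replicate 3, PC9 replicate 1 or PC9 replicate 2. The count lower was 1 without PC9/gef replicate 1 and 2 without PC9/gef replicate 3, PC9 replicate 2 or PC9 replicate 3.

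Of the 36 genes of actomyosin and stress fibres above background 14 were higher (38.9%) and 1 was lower (2.78%), with a median of 0.076. PFN2, a profilin that supplies actin monomers, read 13.31, 13.25 and 13.25 in PC9/gef and 12.37, 12.40 and 12.37 in PC9, and rose by 0.89 (adjusted p = 0.00011). CFL2, a cofilin that severs filaments, averaged 10.24 in PC9/gef and 9.38 in PC9 and rose by 0.86 (adjusted p = 0.00043), with 3 probe sets between 0.40 and 0.96. RHOB, a small GTPase, rose by 0.73 (adjusted p = 0.0014), and LIMK2, the kinase that inactivates cofilin, rose by 0.70 (adjusted p = 0.00052), although its 3 probe sets ranged from -0.072 to 0.70. The single gene lower was RHOA, the GTPase that drives stress fibre assembly, at 13.04, 13.08 and 13.08 in PC9/gef and 13.62, 13.61 and 13.66 in PC9. It fell by 0.57 (adjusted p = 0.00019) and was lower on both of its probe sets. MYH9, the heavy chain of non-muscle myosin IIA, rose by 0.24 (adjusted p = 0.034), but did not pass when any of the 6 arrays was left out (adjusted p 0.067 to 0.084). The count lower was 2 without PC9/gef replicate 3 or PC9 replicate 1.

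SRF itself averaged 7.17 in PC9/gef and 7.01 in PC9 and did not pass (adjusted p = 0.14), although it fell just under the threshold without PC9 replicate 1 (adjusted p = 0.05). Its cofactor MRTFA differed by 0.46 on its brightest probe set and did not pass either (adjusted p = 0.079). The 4 MRTFA probe sets above background, 2 higher and 2 lower, ranged from -0.045 to 0.46. Myocardin, MYOCD, the smooth muscle cofactor, was at 2.27 in both lines, below background. Of the 17 genes of this list above background 5 were higher (29.4%) and 2 lower (11.8%), with a median of 0.17. ABLIM1 and ABLIM3, actin-binding LIM proteins, rose by 0.64 (adjusted p = 0.0022) and 0.43 (adjusted p = 0.0054). FHL2, a LIM-only cofactor, averaged 11.92 in PC9/gef and 11.40 in PC9 and rose by 0.51 (adjusted p = 0.00041). GATA6, a transcription factor of lung and smooth muscle, read 7.45, 7.37 and 7.48 in PC9/gef and 7.85, 8.09 and 8.06 in PC9, and fell by 0.57 (adjusted p = 0.0082).

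The list of membrane skeleton genes included the largest changes of the 4 lists. Of 19 above background 6 were higher (31.6%) and 3 lower (15.8%), with a median of 0.10, and 3 exceeded 2-fold. MPP1, the p55 scaffold of the red cell membrane, read 6.65, 6.89 and 6.80 in PC9/gef and 4.85, 4.68 and 4.71 in PC9, a rise of 2.04 or 4.11-fold (adjusted p = 0.00027). ANK3, ankyrin-G, which ties spectrin to membrane proteins, averaged 9.90 in PC9/gef and 8.60 in PC9 and rose by 1.30 (adjusted p = 0.00042). EPB41L4A, a protein related to the red cell band 4.1 protein, read 3.62, 3.71 and 3.48 in PC9/gef and 5.43, 5.67 and 5.49 in PC9, and fell by 1.93 (adjusted p = 0.00037). Its relative EPB41L4B fell by 0.69 (adjusted p = 0.00022), so members of this list moved in both directions beyond the spread between arrays. ANK3, EPB41L4A and EPB41L4B were above background only on probe sets with a shared-transcript suffix.

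**Figure D5:**
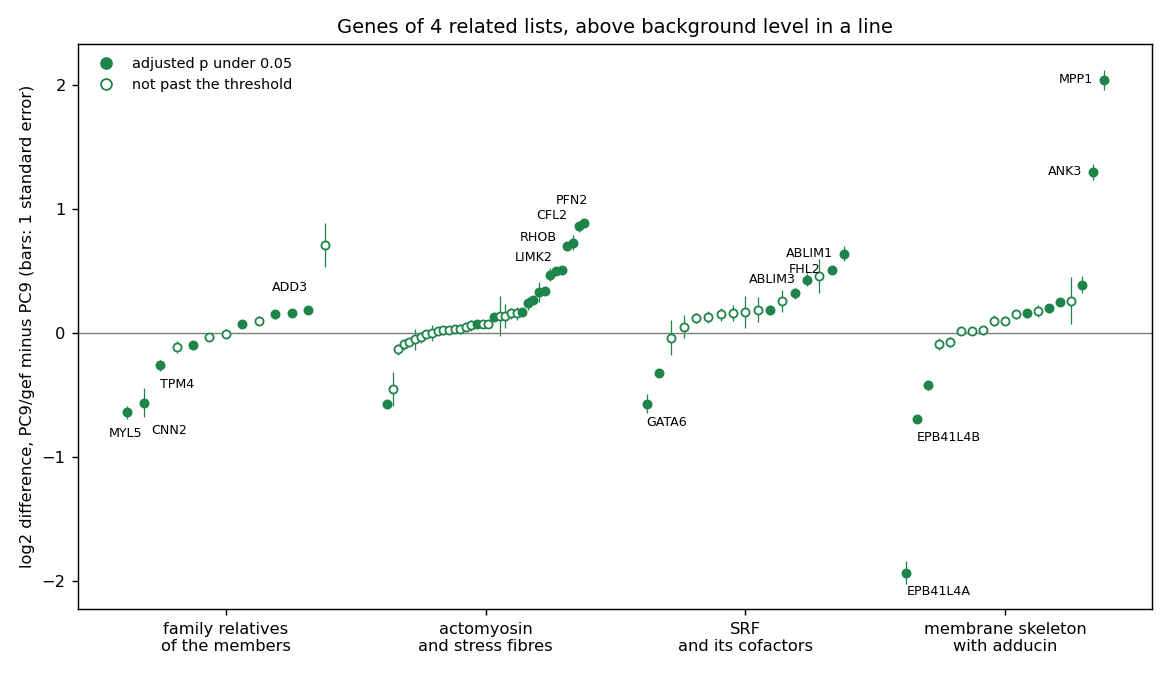
Log2 difference, PC9/gef minus PC9 (vertical axis, bars 1 standard error), of genes above background in the 4 lists (horizontal axis), filled where the limma adjusted p is under 0.05, with the genes named by rule labelled. MPP1 reaches 2.04 and EPB41L4A -1.93, and the actomyosin list has 14 filled points above 0 and 1 below.

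Markers of other cell types were checked beside these results. Of 9 smooth muscle markers 6 were at background in both lines, including MYOCD, MYH11 and LMOD1, and the mean level of the list was 2.83 to 2.85 on the PC9/gef arrays and 2.86 to 2.89 on the PC9 arrays. SYNM was above background, at 5.71 in PC9/gef and 5.96 in PC9, and DES and ACTG2 barely exceeded it. Of 10 fibroblast markers 7 were at background, and the list averaged 3.06 to 3.07 in PC9/gef and 3.01 to 3.05 in PC9. COL1A1, a collagen chain, averaged 8.46 in PC9/gef and 7.94 in PC9 and rose by 0.52 in limma (adjusted p = 0.039). The COL1A1 call was lost without any 1 array (adjusted p 0.069 to 0.13) except PC9 replicate 3, and its other probe set above background differed by -0.29. Of 4 measured erythroid markers, the lineage in which adducin is best known, 3 were at background, and the list averaged 2.88 to 2.92 in PC9/gef and 2.91 to 2.98 in PC9. HBB was above background, at 4.57 in PC9/gef and 4.65 in PC9. All 6 epithelial markers were bright, at a mean of 13.90 to 13.92 in PC9/gef and 13.89 to 13.91 in PC9. KRT7 and CDH1 were higher by 0.29 and 0.19, and KRT8 and KRT18 lower, with differences of -0.33 and -0.10. The arrays correlated at 0.9992 or above within a line and at 0.9944 or below between the lines.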

How the data were processed

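RNA of 3 PC9/gef and 3 PC9 samples was measured on 6 Affymetrix arrays of 54675 probe sets each. The deposited log2 values are those of the authors, who corrected the background, normalized the arrays and gave 1 value per probe set. Their supplementary methods name GC-RMA in GeneSpring GX and the submitters' processing notes name RMA, and versions are not given in the sources used here. Values ran from 1.65 to 15.72 and their sorted values were the same on all arrays, so no step was added.

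After removal of 62 controls, 41091 probe sets had 1 annotated gene, 1801 had several and 11721 had no gene. Each of 19775 genes was read from its brightest probe set by the mean of the 6 arrays. At or below the background level of 2.65 lay 54.2% of probe sets. There are no counts behind the values, and the number of arrays limits the precision. With 3 arrays per line the smallest two-sided p of an exact permutation test is 0.1, so limma 3.58.1 under R 4.3.3 was used (trend and robust off), tested on simulated data, and p-values were adjusted by Benjamini-Hochberg, once over probe sets and once over genes. The gene fit estimates the spread over the genes' own probe sets. A fit with the spread estimated over all probe sets was added after seeing the data. The study defined changed genes by a 2-fold difference, which was counted beside the test.

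The 10 genes, the lists and the motifs were chosen with earlier results of these data known. The text names every probe set of the 10 genes that is above background, up to 4 genes per list with the largest difference among those that passed, ACTB and ACTG1, and the 4 genes closest in profile to ADD2 and to TAGLN. ADD1, ACTC1, RHOA, MYH9, SRF, MRTFA and the named markers are outside this rule, having been chosen with their values in view. The lists held 20 relatives (18 measured), 45 actomyosin genes (41), 20 SRF genes (19) and 27 membrane skeleton genes (24), and the listed genes that no probe set reads alone were not analysed here. FHL2 is in both the actomyosin and the SRF list. Promoter sequences are from RefSeq, GRCh38.p14, matched by symbol for 8 of the 10 genes, without TAGLN and MYL9. Python 3.11.15 with matplotlib 3.10.9 drew the figures.

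The alternatives were Student's t-test, limma with trend and robust on, quantile normalization, centring on the median, only probe sets above background, a block for the replicate number, the fits without each array, the mean over a gene's probe sets, the omission of _x_at and _s_at probe sets, and a 2-fold threshold without a test. The paper names Student's t-test for comparing group means in general, and for the arrays it describes only the 2-fold threshold.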

Additional observations from a re-analysis of the deposited data

How the results depend on the processing

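The number of arrays and the signal over background limit these results, and 54.2% of probe sets were at background. Of 100 alternatives for the differences of the 10 genes 88 moved them by less than the spread between arrays, 11 moved them further and 1 reversed a difference that had passed, that of TPM1 without _x_at and _s_at probe sets (-0.0353). Small differences that had not passed also changed sign, TAGLN2 (-0.0944) and CNN3 (0.0755) with the mean over all probe sets and ACTA2 (-0.013) without PC9/gef replicate 2. The 88 are no measure of robustness. Sorted values were the same on all arrays, so quantile normalization and median centring could hardly move a difference. ACTA2, CNN1 and MYL9 lay at or near background, where differences could not be read. With the mean over all its probe sets the ADD2 difference was 0.826 and that of TAGLN -0.52, and without those suffixes ADD2 was 1.17 and TAGLN -0.0109. Except where probe sets were left out, the counts below cover all 54613 probe sets and 19775 genes. The cause of their changes was not tested. limma called 9070 probe sets, 4158 higher and 4912 lower, and 5459 genes, 2781 higher and 2678 lower. With trend and robust moderation these became 14689 probe sets, 9860 of them lower, and 8309 genes, 5181 of them lower, and 2 actomyosin genes were lower. Student's t-test called 4093 genes lower. More than 2-fold, with no test, were 976 probe sets and 570 genes. Same-numbered arrays of the lines did not deviate together (correlations -0.03, 0.02 and 0.05), so the numbers do not pair the samples. With the replicate block 4123 probe sets were called, 2020 higher and 2103 lower, and 1770 genes were lower, with 1 relative and 1 SRF gene lower, and GATA6, CNN2, TPM4, ACTB and COL1A1 did not pass (adjusted p 0.059, 0.12, 0.061, 0.11 and 0.093). Leaving out 1 array gave 5749 to 12211 probe sets, of which 2864 to 8342 were lower. Both upper ends came from leaving out PC9/gef replicate 2, and without any other array at most 6351 were called and 3370 were lower. Across those fits relatives were 2 to 4 higher and 1 to 3 lower, and actomyosin genes 1 to 2 lower. With the mean over a gene's probe sets 2 relatives were higher and 3 actomyosin genes lower. Only above background, 2 actomyosin genes were lower and 8 SRF genes higher. Without _x_at and _s_at probe sets 1819 genes were higher. Genes read only by such probe sets, as MYL5 and CNN2 among the relatives, were not in that fit. Its counts are therefore over fewer genes, and a lower count does not mean only lost calls. There relatives were 2 higher and 1 lower, 7 actomyosin genes were higher, SRF genes were 1 higher and 1 lower, and membrane skeleton genes 3 higher and 1 lower, and ANK3, EPB41L4A and EPB41L4B were read from background-level probe sets and did not pass (adjusted p 0.35, 0.072 and 0.46). ACTC1 and MRTFA passed with trend and robust moderation (0.018 and 0.033) and only above background (0.012 and 0.024). With the spread estimated over all probe sets, an alternative chosen after seeing the data, 6236 genes were called, 2854 higher and 3382 lower, 5 relatives and 7 membrane skeleton genes were higher, and ACTC1 passed (0.048). The other list counts were the same there, and quantile normalization and median centring moved no count by over 1.5 times.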
